A study of Mus musculus with 3 samples.

Results

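Gdf10 Inmt fibroblasts without Pi16 were cells of the flexor digitorum longus (FDL) tendon that held UMIs (unique molecular identifiers, 1 per captured transcript) of *Gdf10* or *Inmt* and few or none of *Pi16*, *Krtdap* and *Ccn3*. They numbered 151 of 19709 kept cells in 3 single-cell RNA sequencing (scRNAseq) libraries, or 151 of 3732 fibroblasts that passed a first gate. Kept cells had 1000 to 5000 detected genes and at most 10% mitochondrial UMIs. The gate asked for at least 5 UMIs over *Efemp1*, *Pi16*, *Scara5*, *Cd248*, *Gdf10* and *Inmt*, more than over the tendon cell genes *Tnmd*, *Fmod*, *Kera* and *Cilp2*. It allowed at most 2 UMIs over the immune genes *Tyrobp* and *Fcer1g* and none of the endothelial genes *Pecam1* and *Cdh5*. Members of the population then had at least 3 UMIs over *Gdf10* and *Inmt*, at most 2 of *Pi16* and at most 2 over *Krtdap* and *Ccn3*. Members were thus chosen by the measured UMIs of these 16 genes, so their values describe the choice and were not tested.

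The study asked how tendon is kept in order by cells of the Scleraxis (*Scx*) lineage and what their loss shares with ageing. The 6 M DTR library came from Scx-Cre+; DTR F/+ mice, in which *Scx*-driven Cre, active from development on, leaves Scleraxis-lineage cells with the receptor for diphtheria toxin (DT), and the toxin then kills them. The 6 M WT library came from Scx-Cre-; DTR F/+ littermates, which carry the same floxed receptor allele and received the same 5 DT injections at 3 months of age. The 21 M B6 library came from C57BL/6J mice of 21 months without DT. The study states that DTR and WT mice were harvested at 6 months, whereas their age label reads 3 months, the age at injection. C57BL/6J is the labelled strain of all 3 groups, both sexes were used, and each library pooled 16 tendons. With 1 library per group, age, genotype, toxin and library cannot be told apart, and tissue digestion lasted 2 h for 6 M WT but 1.5 h for 6 M DTR and 21 M B6. Values of the 3 libraries are given below in the order 6 M WT, 6 M DTR, then 21 M B6. All intervals between libraries are 95% intervals that cover counting error only.

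Fibroblasts make and remodel collagen-rich matrix. Around vessels and organs, *Pi16* and *Dpp4* are known for marking adventitial fibroblasts that surround them, while other fibroblasts lie within the tissue. *Gdf10* encodes a secreted growth factor of the TGF-beta superfamily also known as BMP3B, and *Inmt* an enzyme that methylates indoles such as tryptamine with S-adenosylmethionine as donor. *Scara5* encodes a scavenger receptor that binds ferritin and is a known surface marker of some fibroblasts.

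The promoters of the 2 genes that define the population are shown because they are unlike in their letters. The sequences are the 120 bases before the annotated start in RefSeq on GRCm38.p6, both on the gene's own strand, and capitals mark TATAAA or GGGCGG, read on both strands (GGGCGG appears as CCGCCC on the other strand). They are *Gdf10* at chr14:33923467-33923586 on the plus strand and *Inmt* at chr6:55174991-55175110 on the minus strand.
Gdf10: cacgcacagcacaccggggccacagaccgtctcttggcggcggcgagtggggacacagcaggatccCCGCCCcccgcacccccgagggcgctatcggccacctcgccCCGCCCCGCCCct
Inmt: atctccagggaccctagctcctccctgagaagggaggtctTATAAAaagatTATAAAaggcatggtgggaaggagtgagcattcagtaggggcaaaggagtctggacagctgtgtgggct
The *Gdf10* window was 76.7% G or C and held 3 copies of GGGCGG on the opposite strand, at −54, −13 and −8, and no TATAAA. The *Inmt* window was 50.8% G or C and held 2 copies of TATAAA, at −80 and −69, and no GGGCGG. Neither held CCAAT. Over 32851 RefSeq promoters of that length, 6.34% held TATAAA, 26.5% GGGCGG and 21.3% CCAAT, and the median was 54.2% G or C. The letters describe the windows and were not tied to the counts.

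Members made up 23 of 8357 kept cells in 6 M WT, which is 0.275% (exact binomial interval 0.174 to 0.413). They were 15 of 6554 in 6 M DTR, or 0.229% (0.128 to 0.377), and 113 of 4798 in 21 M B6, or 2.36% (1.94 to 2.83). The 6 M intervals overlapped each other and both lay below that of 21 M B6. Among gated fibroblasts the shares were 2.91% of 791 cells (1.85 to 4.33), 1.78% of 843 (0.999 to 2.92) and 5.39% of 2098 (4.46 to 6.44) in the same order of libraries. Thus 21 M B6 held most of the gated fibroblasts and, by either denominator, the highest share of members, and it did so too among cells called female and among cells called male. The share is compared between pooled libraries, so the spread between mice is unknown. The denominator of kept cells differed in makeup: cells with at least 5 UMIs of *Tnmd*, *Fmod*, *Kera* and *Cilp2*, more than of the 6 fibroblast genes of the gate and within its immune and endothelial limits, numbered 5337, 2765 and 1000 in the 3 libraries. Other gated fibroblasts were also most frequent in 21 M B6: those with at least 3 *Pi16* UMIs made up 0.120%, 0.137% and 0.938% of kept cells where *Krtdap* and *Ccn3* had at most 2, and 2.03%, 2.37% and 15.1% where they had at least 3.

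**Figure D1:**
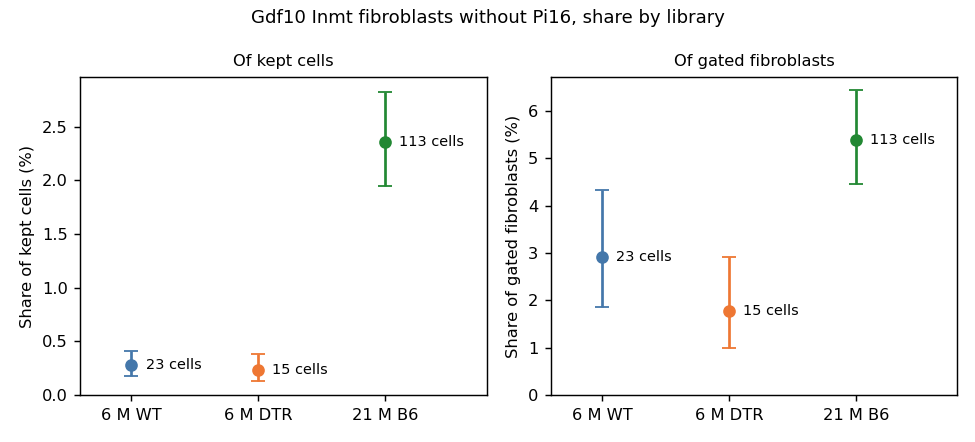
Share of members among kept cells (left) and among gated fibroblasts (right) in percent for the 3 libraries, with exact 95% binomial intervals as bars and the number of member cells beside each point. The 21 M B6 point is the highest in both panels, with 113 cells against 23 in 6 M WT and 15 in 6 M DTR.

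Depth was alike in the members of the 3 libraries. Their median was 11337 UMIs per cell in 6 M WT (2610 to 17090), 11442 in 6 M DTR (6932 to 16981) and 11131 in 21 M B6 (2956 to 24624). Summed over members, the libraries held 246361, 170214 and 1283220 UMIs. Hence the 6 M values rest on far fewer transcripts than those of 21 M B6. Whole libraries held 148149903 UMIs in 15536 barcodes, 123918145 in 16099 and 92707026 in 12273. The median mitochondrial share of members was 2.71%, 2.37% and 5.29% in the 3 libraries, close to the 2.83%, 3.00% and 5.09% of all kept cells. Over 10% mitochondrial UMIs were found in 27.6%, 43.1% and 56.5% of barcodes. Kept cells of 6 M WT shared 15 barcodes with 6 M DTR and 14 with 21 M B6, the latter pair shared 13, and no member shared one. Of members that could be called by *Xist* and Y-linked UMIs, 11 were female and 9 male in 6 M WT, 5 and 6 in 6 M DTR, 33 and 63 in 21 M B6. Female cells were thus 34.4% of called members in 21 M B6, against 55.9% of all called kept cells there.

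The label fibroblast held in the counts of genes that the gate did not use. *Dcn*, which encodes the collagen-binding proteoglycan decorin, was detected in all 151 members, at 15980, 20600 and 13860 CPM (the summed UMIs of a gene in a class of cells per 1000000 UMIs of that class in the library) in the 3 libraries. *Pdgfra*, the receptor that marks most fibroblasts, had a UMI in 18 of 23, 14 of 15 and 89 of 113 members. These shares were not corrected for free RNA taken up by droplets. *Thy1*, a surface protein of many fibroblasts, was low, at 28.4, 0 and 13.3 CPM. Markers of T cells and fat cells were at 0 in every library, and so were the leukocyte gene *Ptprc* and the muscle precursor genes *Pax7* and *Myod1*. The 8 macrophage markers together gave 24.4, 35.3 and 17.9 CPM, and the 7 endothelial markers 4.06, 0 and 3.90 CPM, although both limits of the gate bear on these sums.

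Single cells with RNA of other types were nonetheless present. The 4 Schwann cell markers summed to 0, 23.5 and 221 CPM, with UMIs in 0, 3 and 7 members. In 6 M DTR, the 5 muscle markers summed to 470 CPM, against 32.5 in 6 M WT and 67.8 in 21 M B6, and 50 of 53 UMIs of *Acta1*, skeletal muscle actin, were in 1 cell. Tendon cell markers summed to 2496, 1715 and 2131 CPM, most of it *Comp*, a cartilage and tendon matrix protein, at 1806, 1498 and 2004 CPM. More than 2 UMIs over *Tnmd*, *Fmod*, *Kera* and *Cilp2* were held by 4 members of 6 M WT, none of 6 M DTR and 6 of 21 M B6. No doublet caller was run.

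*Gdf10* and *Inmt* divided the members unevenly. *Gdf10* had a UMI in 82.6%, 73.3% and 77.9% of members, and *Inmt* in 56.5%, 73.3% and 82.3%. At least 3 UMIs of *Gdf10* with none of *Inmt* were counted in 10, 4 and 20 members, the reverse in 4, 4 and 25, and 9, 7 and 68 members held both transcripts. As a level, *Gdf10* stood at 430 (352 to 520), 288 (213 to 381) and 258 (231 to 287) CPM. *Inmt* stood at 536 (448 to 635), 1433 (1259 to 1625) and 791 (743 to 841) CPM, and 4 of 15 members of 6 M DTR held 40 to 48 of its UMIs each. Both genes chose the cells, so their levels are a description only. *Scara5* had a UMI in 16 of 23, 11 of 15 and 83 of 113 members. *Pi16* was wholly absent from 15, 10 and 78 members, the others holding 1 or 2 UMIs.

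**Figure D2:**
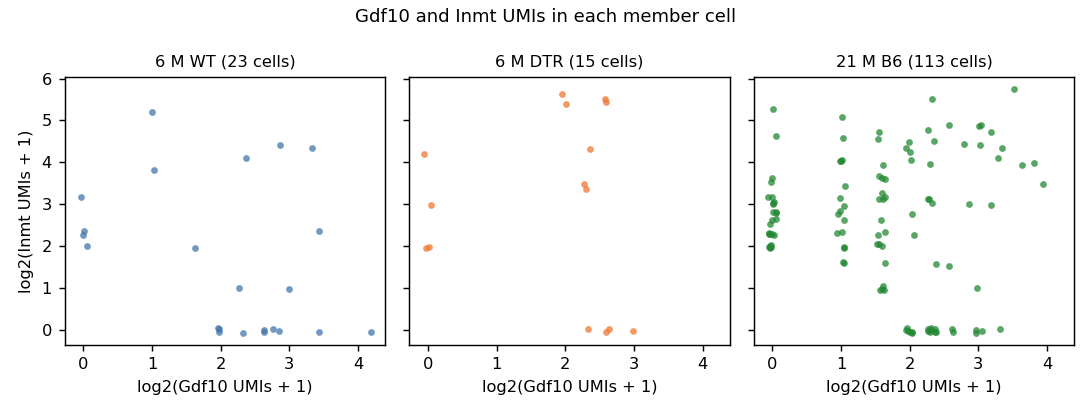
*Gdf10* UMIs (horizontal) against *Inmt* UMIs (vertical), both as log2(UMIs + 1), in each member cell, 1 panel per library, with a small random shift so that points do not hide each other. Cells lie along both axes as well as between them: 10 of 23, 4 of 15 and 20 of 113 members, from left to right, held *Gdf10* without *Inmt*.

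Because droplets also take up free RNA, the shares of positive cells were compared at 5000 UMIs per cell with macrophages, which should lack both transcripts. After thinning, which left out 2, 0 and 4 members with fewer UMIs, *Gdf10* was found in 76.2%, 73.3% and 59.6% of members of the 3 libraries. Macrophages were kept cells with at least 10 UMIs over *Tyrobp* and *Fcer1g* and at least 5 over *C1qa* and *C1qb*, doublets included. Their median depth was 17146, 13612 and 14599 UMIs, and 0.60%, 0.20% and 0.47% of them were positive. *Inmt* was found in 57.1%, 73.3% and 76.2% of thinned members and in 0.40%, 0.10% and 3.05% of macrophages. The members' shares are set by the rule, and the macrophage values give the background only. Outside the members, *Inmt* was more frequent in the older library: 28.5% of Krtdap Ccn3 cells (defined below) were positive in 21 M B6, against 7.16% in 6 M WT and 2.48% in 6 M DTR. Pi16 cells (defined below) carried both transcripts more often than that in 21 M B6 and 6 M WT. Before thinning, 30.0%, 0% and 57.8% of them in the 3 libraries had a UMI of *Inmt*, and 50.0%, 22.2% and 33.3% one of *Gdf10*. In Krtdap Ccn3 cells of 6 M WT and 6 M DTR, 30.4% and 19.4% had a UMI of *Gdf10* before thinning.

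Many cells lay near the limits. With the other criteria met, exactly 3 UMIs over *Gdf10* and *Inmt* were counted in 4, 2 and 17 members of the 3 libraries, and 6, 3 and 13 cells just outside had 2. At the *Pi16* limit, 2, 3 and 16 members held 2 UMIs and 2, 1 and 3 cells outside held 3. At the limit for *Krtdap* and *Ccn3*, 4, 2 and 31 members held 2 UMIs and 7, 1 and 31 cells outside held 3. The limits therefore cut through a range of counts.

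Members were compared with 2 classes of gated fibroblasts. Pi16 cells, with at least 3 *Pi16* UMIs and at most 2 over *Krtdap* and *Ccn3*, numbered 10, 9 and 45, and Krtdap Ccn3 cells, with at least 3 over *Krtdap* and *Ccn3* and at most 2 of *Pi16*, numbered 547, 613 and 1141. *Krtdap* encodes a secreted protein known from keratinocytes and *Ccn3* a matricellular protein of the CCN family. UMIs were summed per class and library, and edgeR's quasi-likelihood test asked for differences common to the 3 libraries, with the library as block and p-values adjusted by Benjamini-Hochberg over 5680 genes. The 3 libraries of different groups are the only replicates of a class, and genes that vary with the 16 chosen genes are found through the choice itself. Female cells were 100%, 44.4% and 66.7% of Pi16 cells with a called sex, against 55.0%, 45.5% and 34.4% of such members. The part of sex in the comparison with Pi16 cells was not tested.

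Against Pi16 cells, 5 of 14 adventitial fibroblast genes were lower in members, and *Igfbp3*, *Il6* and *Cxcl2* were among the 8 genes that edgeR called higher. Of 5680 genes tested, 8 rose (0.141%) and 13 fell (0.229%), together 0.37%, and 735 (12.9%) had an unadjusted p under 0.05. DESeq2 on the same genes gave 66 above and 45 below, and edgeR with no library block gave 0 and 5. Leaving out 6 M WT left 1 gene above, leaving out 6 M DTR gave 14, and leaving out 21 M B6 left 3 below. *Dpp4*, a surface peptidase and the best-known companion of *Pi16*, stood at 0, 5.88 and 3.90 CPM in members, against 60.3, 57.6 and 59.2 CPM in Pi16 cells. The classes did not overlap, and the log2 fold change was −3.99 ± 0.48 (SE, adjusted p = 0.0041 in edgeR). *Cd55*, which encodes a membrane inhibitor of complement, stood at 114, 82.3 and 157 CPM against 623, 1257 and 486 (−2.37 ± 0.31, adjusted p = 0.0057). *Fbn1*, the microfibril protein fibrillin-1, stood at 244, 176 and 143 CPM against 804, 1373 and 501 (−2.04 ± 0.24, adjusted p = 0.0041). All members' libraries lay below all Pi16 libraries for both genes, and both calls held under all 14 alternatives.

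Among the other genes called lower than in Pi16 cells, *Krt80*, a keratin, was at 0, 0 and 0.78 CPM against 60.3, 86.4 and 38.1 (log2 fold change −6.40 ± 0.93). *Sbsn*, encoding the secreted epidermal protein suprabasin, was at 20.3, 52.9 and 22.6 CPM against 251, 288 and 59.2 (−2.16). *Ltbp2*, a fibrillin-binding protein, was at 8.12, 29.4 and 4.68 CPM against 50.2, 192 and 59.2 (−3.08). *AA467197*, *Efhd1*, *Anxa3*, *Pcsk6* (a proprotein convertase) and *Mfap5* (a microfibril protein, 601, 388 and 475 CPM against 1146, 1910 and 1222) fell by 4.31, 2.41, 2.1, 2.08 and 1.42 on the log2 scale. Leaving out 21 M B6 ended the calls of all these genes but *Sbsn*, and that of *Dpp4*. The *Sbsn* call was lost without either 6 M library, and that of *Efhd1* also without 6 M WT. With no library block, the calls of *Sbsn*, *Ltbp2*, *AA467197*, *Efhd1*, *Pcsk6* and *Mfap5* were lost.

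*Igfbp3*, a binding protein that carries insulin-like growth factors, led the genes above Pi16 cells, at 369, 241 and 263 CPM against 30.2, 0 and 55.0. The classes did not overlap (log2 fold change 3.18 ± 0.48, adjusted p = 0.0116 in edgeR). Few members carried it: after thinning, *Igfbp3* was found in 6 of 21, 3 of 15 and 23 of 109 members, 2.02%, 0.83% and 1.68% of Krtdap Ccn3 cells and 0.60%, 0.30% and 0.94% of macrophages.

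*Il6*, an inflammatory cytokine, stood at 2285, 1968 and 2642 CPM against 382, 240 and 1210 (2.38 ± 0.38), and *Cxcl2*, a chemokine for neutrophils, at 1981, 3584 and 2385 CPM against 151, 778 and 522 (2.64 ± 0.26). Both were higher in every library. The *Igfbp3* and *Il6* calls were lost with no library block and without 6 M WT, that of *Il6* also after thinning, and the *Cxcl2* call with no library block. The *Cxcl2* value turned to −1.07 when cells were gated after thinning to 5000 UMIs, which selects other cells, with an adjusted p of 0.379 in edgeR. *Rrad*, a small GTPase, rose by a log2 fold change of 2.15, *Jak2*, a cytokine receptor kinase, by 1.70, and the cysteine protease inhibitors *Cst3* and *Cstb* by 1.25 and 1.07. The *Jak2* call was lost under 9 of 14 alternatives and that of *Cstb* under 6, while those of *Rrad* and *Cst3* ended without 6 M WT, without 21 M B6 or with no block. The *Cst3* call also ended with a stricter exclusion of other cell types.

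The comparison was repeated with all gated cells that had at least 3 *Pi16* UMIs, of which 64 were the Pi16 cells and 1050 also held at least 3 UMIs over *Krtdap* and *Ccn3*, so the class was mostly another one. The calls there were 433 genes above (4.85%) and 318 below (3.56%) of 8937, together 8.4%, with 1853 (20.7%) at an unadjusted p under 0.05, and the called genes held 7 of the 8 and 13 of the 13 genes named by the smaller comparison. The classes of the 2 comparisons share the members and the Pi16 cells. Leading genes above were *Igfbp3* (log2 fold change 5.25), *C2* (3.61), *Mgp* (3.49), *Apoe* (3.47), *Ptn* (3.15), *C7* (3.03), *Bmper* (3.03), *Tfpi2* (3.03), *Cyp26b1* (2.88) and *Iigp1* (2.84). Leading genes below were *Stmn4* (−6.08), *Dmkn* (−5.20), *Dpp4* (−4.50), *AA467197* (−4.07), *Ltbp2* (−3.83), *Sbsn* (−3.79), *Slurp1* (−3.62), *Scg3* (−3.01), *Saa3* (−2.73) and *Pcsk6* (−2.71).

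Of 16 adventitial fibroblast genes in the list, 14 could be tested against Pi16 cells. None rose and 5 fell (*Dpp4*, *Cd55*, *Efhd1*, *Anxa3* and *Fbn1*), with a median log2 fold change of −1.51 where all genes had 0.01. Against Krtdap Ccn3 cells 11 of 14 fell and none rose (median −1.56, all genes 0.01). Against all cells with at least 3 *Pi16* UMIs, 15 of 15 fell, and the median of those other than *Wnt2*, which had no UMI in any member, was −1.75. The list was chosen with earlier results of these data known, and *Pi16* and *Cd248*, its usual companions, were among the genes that chose the cells.

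**Figure D3:**
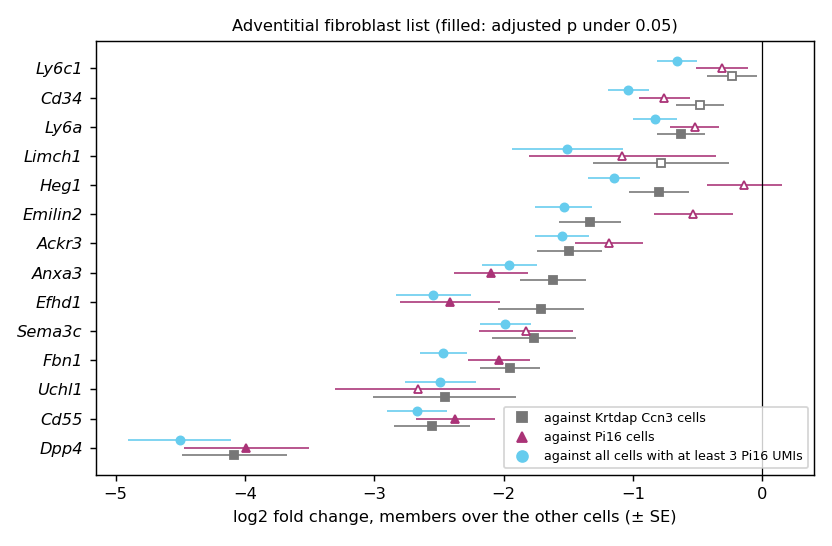
Log2 fold change (horizontal, ± SE) of 14 adventitial fibroblast genes in members over 3 comparison classes, with filled symbols where the adjusted p was under 0.05 in edgeR. All 42 points lie at or below 0, from −4.50 for *Dpp4* against all Pi16 cells to −0.14 for *Heg1* against Pi16 cells.

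Against Krtdap Ccn3 cells, which are the most numerous gated fibroblasts, the members had higher transcript levels of 10 of 11 complement genes, 8 of 14 cytokine and chemokine genes, 5 of 6 lipid handling genes and 6 of 12 metallothionein and redox genes, and lower levels of 11 of 14 adventitial genes. Of 5680 genes tested, 539 rose (9.49%) and 319 fell (5.62%), together 15.1%, and 1707 (30.1%) had an unadjusted p under 0.05. Without 6 M WT 248 rose and 142 fell, and without 21 M B6 213 rose and 123 fell. Depth and red cell RNA moved with the comparison. Median depth was 17532, 17536 and 15067 UMIs in Krtdap Ccn3 cells against 11337, 11442 and 11131 in members, and the 4 haemoglobin genes summed to 237, 836 and 1012 CPM in Krtdap Ccn3 cells against 56.8, 323 and 30.4 in members, led by *Hbb-bs*. Their part in the result was not tested.

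The genes with the largest rise were again led by *Igfbp3*, at 8.09, 4.17 and 15.7 CPM in Krtdap Ccn3 cells (log2 fold change 5.26 ± 0.36, adjusted p = 1.03e-05 in edgeR). *Mgp*, encoding a matrix protein that inhibits calcification, stood at 4213, 3760 and 2288 CPM in members against 277, 162 and 336 (4.00 ± 0.35). *Apoe*, a carrier of lipids, stood at 597, 1674 and 1706 CPM against 73.2, 34.7 and 229 (4.16 ± 0.54). Each lay higher in every library than in any library of the other class. Macrophages are rich in *Apoe*, and 22.2%, 43.5% and 39.7% of them were positive after thinning, against 15 of 21, 9 of 15 and 57 of 109 members and 9.36%, 6.77% and 16.2% of Krtdap Ccn3 cells.

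*Ogn*, a small leucine-rich proteoglycan, stood at 373, 311 and 248 CPM against 40.9, 17.0 and 46.0 (log2 fold change 3.44). *Fbln1*, encoding fibulin-1 of elastic fibres and basement membranes, stood at 406, 488 and 343 CPM against 55.7, 16.2 and 105 (3.32). *Ptn*, the growth factor pleiotrophin, stood at 187, 11.8 and 34.3 CPM against 10.8, 3.60 and 3.16 (3.72). The first 2 were high in every library of members, whereas *Ptn* was high in 6 M WT. *Iigp1* and *Mndal*, both interferon-inducible, rose by log2 fold changes of 3.54 and 3.31.

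Complement genes were higher almost as a group. Of 11 tested, 10 rose and 1 fell, with a median log2 fold change of 2.12. *C3*, the central component, stood at 739, 734 and 742 CPM in members against 144, 78.3 and 326 in Krtdap Ccn3 cells (2.50 ± 0.38). The 3 libraries of members differed little in *C3*, and the Krtdap Ccn3 library of 21 M B6 stood highest of its class. After thinning, 13 of 21, 9 of 15 and 73 of 109 members were positive for *C3*, against 23.7%, 13.5% and 38.4% of Krtdap Ccn3 cells and 4.59%, 2.79% and 7.04% of macrophages.

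Among components of the classical pathway, *C2* stood at 85.2, 164 and 42.9 CPM against 6.72, 6.73 and 5.86 (3.90 ± 0.47), *C4b* rose by 2.32, and the proteases *C1ra* and *C1s1* by 1.37 and 1.29. *Cfb*, a protease of the alternative pathway, rose by 2.12. *C7*, of the membrane attack complex, stood at 40.6, 458 and 84.2 CPM against 1.26, 1.71 and 15.9 (5.11 ± 0.87). The regulators *Clu* and *Serping1* (1652, 2115 and 1616 CPM against 911, 846 and 1164) rose by 1.80 and 1.15.

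The exception was *Cd55*, at 861, 1105 and 795 CPM in Krtdap Ccn3 cells, which fell by 2.55 on the log2 scale and sits in the adventitial list too. With no library block, 5 complement genes rose and 1 fell. *C4b* has near-identical copies whose reads the counting may have split. Against Pi16 cells none of the 11 rose in edgeR (3 at an unadjusted p under 0.05) and *Cd55* fell (median 0.63, all genes 0.01), and *C3* was at 1116, 269 and 975 CPM there.

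**Figure D4:**
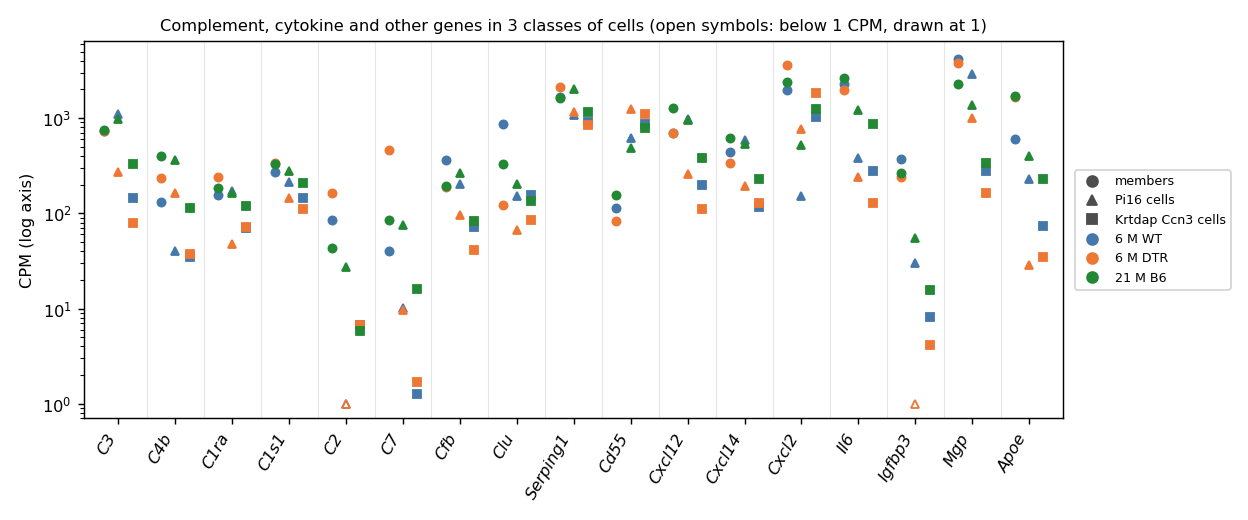
Levels in CPM (log axis) of 10 complement genes and 7 other genes in members (circles), Pi16 cells (triangles) and Krtdap Ccn3 cells (squares), coloured by library, with levels below 1 CPM drawn open at 1. Circles lie above the squares of the same library for all genes but *Cd55*, which is at 114, 82.3 and 157 CPM in members, and the triangles are often close to the circles.

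Of 14 cytokine and chemokine genes tested, 8 rose and none fell against Krtdap Ccn3 cells (median log2 fold change 1.22). *Il6* rose by 3.16 from 280, 128 and 859 CPM in Krtdap Ccn3 cells. *Cxcl12*, which retains leukocytes and stem cells through CXCR4, was at 690, 705 and 1277 CPM against 198, 111 and 382 (2.33 ± 0.29). *Cxcl14* was at 442, 341 and 621 CPM against 117, 129 and 231 (1.80 ± 0.26). *Cxcl16*, *Lif*, *Kitl*, *Cxcl2* and *Ccl7* rose by 2.25, 1.71, 1.25, 1.19 and 1.15. *Cxcl1*, the most counted of them at 13000, 20060 and 12790 CPM, had a log2 fold change of 1.02 (adjusted p = 0.058 in edgeR), and *Ccl2* one of 0.88 (adjusted p = 0.066). Without 21 M B6, 4 of 11 rose, and with no library block 2 of 14. Against Pi16 cells 2 of 14 rose (*Cxcl2* and *Il6*, median 0.98).

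Of 6 lipid handling genes tested, 5 rose and none fell (median log2 fold change 1.77): *Apoe*, the triglyceride-cleaving enzyme *Lpl* (105, 176 and 252 CPM against 45.7, 11.6 and 61.3, 2.51), the carrier *Apod* (3836, 5246 and 4211 CPM against 2079, 807 and 1135, 2.12) and the transcription factors *Cebpb* (1.41) and *Cebpa* (1.20). With no library block 3 of the 6 rose. Of 12 metallothionein and redox genes, 6 rose and 1 fell (median 1.011). *Mt1*, which binds zinc and copper, was at 8362, 12080 and 19990 CPM against 2405, 1660 and 9353 (2.21 ± 0.32), and *Mt2* rose by 2.20. In both classes *Mt1* was highest in 21 M B6. *Gpx3*, *Sod2*, *Txnrd1* and *Slc7a11*, which handle peroxide, superoxide, thioredoxin and cystine, rose by 1.97, 1.76, 1.36 and 1.36, and the extracellular superoxide dismutase *Sod3* fell by 1.14. *Slc7a11* was uneven in members, at 532, 11.8 and 51.4 CPM. Its call was lost under 10 of 14 alternatives, among them leaving out 6 M WT. With no library block 2 redox genes rose and 1 fell. None of the 6 lipid handling genes (median 1.07) or 12 redox genes (median 0.32) was called against Pi16 cells in edgeR. There 4 and 6 of them had an unadjusted p under 0.05.

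Interferon response genes gave 6 rises and no fall among 11 tested (median log2 fold change 1.06). *Isg15*, a ubiquitin-like protein, was at 138, 29.4 and 81.8 CPM against 4.10, 5.78 and 31.2 (2.92 ± 0.56). *Gbp2*, a guanylate-binding protein, was at 268, 170 and 157 CPM against 55.2, 23.4 and 90.1 (2.07). *Irf9*, *Gbp7*, *Stat2* and *Irf1* rose by 1.67, 1.37, 1.06 and 1.00. The *Stat2* call held under 0 of 12 alternatives and that of *Gbp7* under 3 of 12. From 2 to 4 interferon genes rose when 1 library was left out or the block dropped (2 of 5 tested without 21 M B6, 3 of 15 without 6 M WT, 4 of 15 without 6 M DTR, 2 of 11 with no block). Of 6 MHC class I genes, *Psmb8*, *H2-K1* and *B2m* rose by 2.13, 1.07 and 0.70, and *H2-K1* and its near-identical relatives may share reads. None of the 11 interferon genes (median 1.08) or 6 MHC class I genes (median 0.43) was called against Pi16 cells in edgeR. There 5 and 1 of them had an unadjusted p under 0.05.

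Matrix genes went in both directions. Of 12 proteases and inhibitors, 6 rose and 1 fell (median log2 fold change 1.24): the aggrecan-cleaving *Adamts4* (150, 17.6 and 143 CPM against 17.1, 3.32 and 30.9, 2.81) and *Adamts1* (2.0), the metalloproteinases *Mmp19* (1.79) and *Mmp2* (1.00) and the inhibitors *Timp1* (1.59) and *Timp3* (1.49) rose, and the serine protease *Htra1* fell by 0.99. Of 13 elastic fibre genes, 5 rose and 4 fell (median −0.23). *Eln*, elastin itself, was at 60.9, 176 and 135 CPM against 32.7, 7.49 and 25.5 (2.76 ± 0.53), and *Lox*, which crosslinks elastin and collagen, at 309, 141 and 245 CPM against 54.3, 41.2 and 69.3 (2.27 ± 0.22). *Fbln1*, *Mfap2* and *Fbln5* rose as well. *Ltbp2*, *Fbn1*, *Emilin2* and *Ltbp1*, which belong to or bind the microfibril or the elastic fibre surface, fell by 4.89, 1.95, 1.33 and 0.87.

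Of 7 small leucine-rich proteoglycans, *Ogn*, *Dcn*, *Podn* and *Lum* rose (3.44, 1.08, 0.91 and 0.66) and *Aspn* and *Prelp* fell by 1.51 and 0.81. Of 12 collagens, *Col1a1* rose by 0.78 and none fell (median −0.01). Of 10 basement membrane genes *Lama2* rose by 1.00 and *Hspg2* fell by 0.59, and both calls were lost whenever 1 library was left out (under 7 and 8 of 14 alternatives in all). None of the 12 proteases and inhibitors or 7 small leucine-rich proteoglycans was called against Pi16 cells in edgeR. There 7 and 5 of them had an unadjusted p under 0.05, and 3 of 13 elastic fibre genes were called lower and none higher.

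Since *Gdf10* encodes a ligand of the TGF-beta superfamily, the pathway was described by role. Of 9 other ligands tested, *Tgfb3* rose by 0.99, and *Bmp6* (0, 11.8 and 0.78 CPM against 35.0, 39.3 and 22.4) and *Inhba* (24.4, 47.0 and 53.8 CPM against 221, 244 and 229) fell by 3.55 and 2.22. Of 13 receptors and Smads, none passed the test in either direction (median −0.14), while edgeR gave 2 an unadjusted p under 0.05 and both were higher. Of 8 antagonists, 2 rose and 2 fell: *Fst*, which encodes the activin-binding follistatin (349, 182 and 360 CPM against 46.7, 25.2 and 45.3), rose by 3.12, while *Fstl1* and *Htra1* fell by 0.85 and 0.99. Of 8 targets, *Ccn2* fell by 0.99 and none rose. Against Pi16 cells edgeR called none of the 38 genes tested in these 4 lists, and 13 had an unadjusted p under 0.05.

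As *Inmt* encodes a small-molecule methyltransferase, retinoid and small-molecule enzymes were listed too, and 3 of 14 rose and none fell (median 0.88). *Cyp26b1*, which degrades retinoic acid, was at 146, 47.0 and 221 CPM against 59.5, 18.5 and 45.1 (1.94 ± 0.39), and the glutathione transferase *Gstm2* rose by 1.47. Retinaldehyde dehydrogenases *Aldh1a1*, *Aldh1a2* and *Aldh1a3* were too sparse to be tested. Of 8 genes of the insulin-like growth factor axis, *Igfbp3*, *Igf2* (187, 47.0 and 80.3 CPM against 28.9, 4.36 and 21.3, 2.66) and *Igfbp7* (0.80) rose and *Igfbp6* fell by 0.74. Of 9 Wnt genes, *Lrp6* rose by 0.76, a call lost under 9 of 14 alternatives.

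Of 13 genes known from *Col15a1* fibroblasts of other tissues, *Lpl*, *Cxcl12*, *Penk* (1.66) and *Smoc2* (1.13) rose and *Vwa1* fell by 1.56, while *Col15a1* itself was at 48.7, 11.8 and 32.0 CPM against 56.0, 32.6 and 26.4 (log2 fold change 0.14, adjusted p = 0.84 in edgeR). Of 21 immediate early genes, 6 rose and 1 fell (median 0.64), led by *Myc* (2.08), and *Klf4* fell by 0.86. The calls of *Myc*, *Junb*, *Fosl2*, *Egr2*, *Ier2*, *Zfp36* and *Klf4* were all lost with no library block. Immediate early genes are known to respond to tissue digestion, whose part in the result was not tested. Of 16 heat shock genes *Bag3*, *Dnaja1* and *Dnajb4* rose by 1.13, 0.85 and 0.81. Each of these heat shock calls was lost with no library block, without 6 M WT and without 21 M B6. Of 7 senescence and cell cycle inhibitor genes, *Cdkn1c* and *Gadd45b* rose by 2.13 and 1.98.

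Among the genes that fell most against Krtdap Ccn3 cells, *Ltbp2* stood at 373, 529 and 225 CPM in Krtdap Ccn3 cells. *Dmkn* (dermokine), *Slurp1*, *Sbsn* and *AA467197* fell by 4.52, 4.33, 3.79 and 4.17 on the log2 scale, and *Dpp4* by 4.08. *Clic5*, an ion channel protein of the synovial lining list, was at 0, 5.88 and 10.1 CPM against 168, 159 and 166 (−4.18 ± 0.42), and *Tspan15* of the same list fell by 4.56. Yet *Prg4*, the lubricin gene of that lining, was counted at 4733, 4647 and 3312 CPM in members against 6602, 9710 and 5832, a log2 fold change of −0.55 (adjusted p = 0.15 in edgeR). *Scg3*, a secretory granule protein (32.5, 58.8 and 21.0 CPM against 585, 414 and 454), and *Tnfrsf11b*, the osteoclast inhibitor osteoprotegerin (8.12, 5.88 and 1.56 CPM against 68.4, 47.4 and 47.2), fell by 3.83 and 3.80.

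*Hba-a2*, a haemoglobin chain of red cells with a near-identical copy, fell by 3.76. All 3 haemoglobin genes tested fell, and none without the deepest 5% of cells. The mural gene *Rgs5* fell by 3.42. The tenocyte genes *Chad* and *Thbs4* rose by 2.07 and 1.81, and leaving out 6 M WT ended both calls. The *Thbs4* call was also lost without members with over 2 UMIs of *Tnmd*, *Fmod*, *Kera* and *Cilp2*.

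Within the population, members with *Inmt* alone were compared with members with *Gdf10* alone. Of 1067 genes with enough counts, none was called in either direction in edgeR (0.0%), 75 had an unadjusted p under 0.05 (7.03%), and DESeq2 called 3 higher and 3 lower among the same genes and 6 and 5 among 12584 genes with no low-count filter. Without 6 M DTR, edgeR called 9 higher and 4 lower. The classes held 4, 4 and 25 cells against 10, 4 and 20.

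Between libraries, levels in members were compared as ratios of CPM with exact intervals from both counts, over genes with at least 50 CPM in either library. UMIs of 1 cell are not independent, so the intervals are too narrow where few cells carry a gene, and the share of a gene's UMIs that came from its highest cell is given where it was over 50% in the library where the gene was higher. In 6 M DTR against 6 M WT, 219 of 3173 genes were over 2-fold higher (6.90%) and 341 over 2-fold lower (10.7%), of which 125 (3.94%) and 201 (6.33%) had an interval that left out 1. In 21 M B6 against 6 M WT, 113 of 2951 were higher (3.83%) and 352 lower (11.9%), of which 106 (3.59%) and 347 (11.8%) had such an interval. Taken over all genes, the median log2 ratio was −0.09 for 6 M DTR and −0.29 for 21 M B6. Under TMM scaling it was −0.06 and 0.11, and the 21 M B6 counts turned to 245 higher and 139 lower, so the direction of the majority there depends on the scaling.

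The highest ratios of 6 M DTR came mostly from single cells. *Mmp3*, the matrix protease stromelysin, was at 1052 CPM against 12.2 in 6 M WT, 86.4 times as high (29.1 to 423), with 179 UMIs in 5 cells and 57.0% of them in 1. *Cxcl5*, a neutrophil chemokine, was at 646 CPM with all 110 UMIs in 1 of 15 cells. Against the limit of 3 counts that a count of 0 allows in 6 M WT, it was 53.1 times as high. Its exact interval began at 42.4. *Il1rl1*, the receptor of IL-33, and *Csf2*, the cytokine GM-CSF, were 34.7 and 28.0 times as high against the same limit. Their intervals began at 27.5 and 22.0, and all their 72 and 58 UMIs were in 1 cell each. *Mylpf*, *Acta1*, *Tnni2* and *Myl1*, all of skeletal muscle fibres, followed, with 97.9%, 94.3%, 100% and 95.5% of UMIs in 1 cell. Thus 8 of the 10 highest genes had over 50% of their UMIs from 1 cell. *C7* was carried more widely, at 458 CPM against 40.6, 11.3 times as high (5.82 to 24.5), with UMIs in 7 of 15 cells against 3 of 23. *Bdkrb1*, a bradykinin receptor, had 10 UMIs against 1, a ratio of 14.5 (2.06 to 628).

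The lowest ratios of 6 M DTR were more widely spread over cells. *Coch*, the matrix protein cochlin, was at 11.8 CPM against 1567, but 364 of 386 UMIs of 6 M WT (94.3%) came from 1 cell. Its log2 ratio was −7.06. *Slc7a11*, the cystine transporter, was at 11.8 CPM against 532, a ratio of 0.0221 (0.00265 to 0.0814), with UMIs in 1 of 15 cells against 11 of 23. *Ndufa4l2*, a mitochondrial protein induced by low oxygen, was at 11.8 CPM against 211, a ratio of 0.0557 (0.00657 to 0.212), with UMIs in 2 of 15 cells against 14 of 23. *Id1*, a target of BMP signals, had 1 UMI against 33, a ratio of 0.0439 (0.00108 to 0.262). *Chad*, *Ptn*, *Cyp1b1*, *Dio2*, *Pitrm1* and *Uaca* had ratios from 0.0579 to 0.0851, and 56%, 52.4% and 58.8% of the 6 M WT UMIs of *Chad*, *Dio2* and *Uaca* came from 1 cell. Without the 4 members of 6 M WT with over 2 UMIs of *Tnmd*, *Fmod*, *Kera* and *Cilp2*, the log2 ratio of *Coch* was −3.11, that of *Chad* −3.19 (from −4.11) and that of *Slc7a11* −4.42 (from −5.50). Of 8 interferon response genes, 4 were over 2-fold lower and none higher (median log2 ratio −1.03, all genes −0.09). Over all genes ranked, 341 of 3173 (10.7%) were lower.

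In 21 M B6, the stress gene *Gadd45g* was the most widely carried of the high ratios, at 758 CPM against 114 in 6 M WT, 6.67 times as high (4.58 to 10.1), with UMIs in 90 of 113 cells against 9 of 23. *Penk*, the precursor of enkephalins, was at 218 CPM against 32.5, 6.72 times as high (3.36 to 15.7), with UMIs in 43 cells. *Mrps6*, a mitochondrial ribosomal protein, was at 108 CPM against 12.2, a ratio of 8.90 (2.98 to 43.7), with UMIs in 60 cells. *Ereg*, the growth factor epiregulin, was 20.9 times as high against the limit of 3 counts. Its interval began at 16.9, and its 327 UMIs were in 7 cells. *Cxcl5*, 7.94 times as high against that limit (interval from 6.36), rested mostly on 1 cell (93.5% of UMIs). *Arc*, *Tac1*, *Cryab* and *Itpkc* had ratios from 5.62 to 6.43, with 53.4% of *Tac1* UMIs in 1 cell.

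At the low end of 21 M B6, *S100g*, a calcium-binding protein, had 1 UMI against 66, a ratio of 0.00291, but 71.2% of the UMIs of 6 M WT were in 1 cell. *Coch*, *Spp1*, *Fibin*, *Thbs4* and *Chad* also rested mostly on 1 cell of 6 M WT (94.3%, 90.8%, 100%, 86.1% and 56%). *Slc7a11* was at 51.4 CPM against 532 in 6 M WT, a ratio of 0.0967 (0.0708 to 0.131). Its log2 ratio was −3.37, and −2.22 without members with over 2 UMIs of *Tnmd*, *Fmod*, *Kera* and *Cilp2*, while that of *Coch* moved from −6.39 to −2.47. These ratios and those of 6 M DTR share the 6 M WT cells. *Chad*, *Gdnf*, *Jagn1* and *Pdgfrl* had ratios from 0.0845 to 0.166.

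Collagen transcripts were lower and heat shock transcripts higher in the members of 21 M B6. Of 11 collagens ranked, 8 were over 2-fold lower and none higher (median log2 ratio −1.16, all genes −0.29). Over all genes ranked, 352 of 2951 (11.9%) were lower. Under TMM scaling 4 collagens were lower, with a median of −0.81, and 139 of all 2945 genes. *Col1a1* was at 429 CPM against 1538 in 6 M WT, a ratio of 0.279 (0.244 to 0.319), and *Col3a1* at 508 CPM against 1339, a ratio of 0.379 (0.332 to 0.434). In 6 M DTR members *Col1a1* was at 1398 and *Col3a1* at 2115 CPM, so 21 M B6 stood apart from both younger libraries. In Krtdap Ccn3 cells 4 of 11 collagens were over 2-fold lower in 21 M B6 (median −0.87, all genes −0.23). Over all genes ranked in that class, 30 of 3010 were lower. Whether the classes differ was not tested. Of 4 tendon cell markers ranked, *Thbs4*, *Chad* and *Fibin* were over 2-fold lower in 21 M B6 members (median −2.86, and −2.51 under TMM scaling). In 6 M WT, 86.1%, 56% and 100% of their UMIs came from 1 cell. The other, *Comp*, the most counted tendon cell marker, was not lower. *Fmod* RNA counted in macrophages, whose gate set no limit on tendon cell genes, was at 211, 154 and 26.8 CPM in the 3 libraries. The part of tendon cell RNA in the collagen ratios was not tested. Without members with over 2 UMIs of *Tnmd*, *Fmod*, *Kera* and *Cilp2*, 7 of 11 collagens were lower and none higher (median −1.24, all genes −0.28). Of the tendon cell markers, 2 could then be ranked and 1 was lower (median −1.34).

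Of 16 heat shock genes, 8 were over 2-fold higher in 21 M B6 members and none lower (median log2 ratio 0.94, all genes −0.29), and 11 under TMM scaling. Over all genes ranked there, 113 of 2951 (3.83%) were higher, and 245 of 2945 under TMM scaling. *Hspa1b*, an inducible HSP70 chaperone, was at 840 CPM against 207, 4.06 times as high (3.06 to 5.49), and its near-identical copy *Hspa1a* was 2.67 times as high. Both were lower in 6 M DTR members, at 94.0 and 35.3 CPM. In Krtdap Ccn3 cells 9 of 16 were higher in 21 M B6 (median 1.09, all genes −0.23), against 70 of all 3010 genes ranked in that class. Of immediate early genes, 5 of 20 were higher and 1 lower in 21 M B6 members (13 and none under TMM scaling) and 5 of 21 higher and 1 lower in 6 M DTR members. Over all genes ranked in 6 M DTR members, 6.90% were higher and 10.7% lower. The mitochondrial share and digestion time moved with these libraries, and their part in the ratios was not tested.

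**Figure D5:**
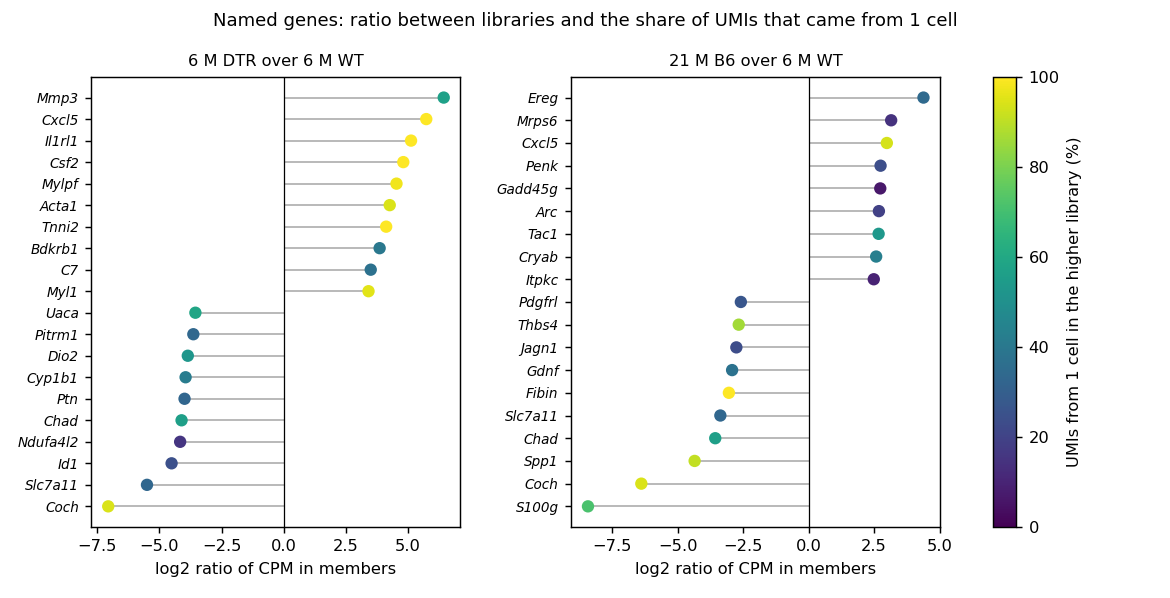
Log2 ratio of CPM in members (horizontal) of the named genes with the highest and lowest ratios in 6 M DTR (left) and 21 M B6 (right) over 6 M WT, coloured by the percentage of UMIs that came from 1 cell in the library where the gene was higher. Of the highest genes shown, 8 of 10 in 6 M DTR and 2 of 9 in 21 M B6 had over 50% of their UMIs from 1 cell, and ratios against a library at 0 use the limit of 3 counts.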

How the data were processed

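Single cells of pooled FDL tendons were sequenced by the authors with 10x Genomics Chromium 3′ chemistry. The deposited files hold raw, unnormalized UMI counts for each gene in each barcode. The file headers name Cell Ranger 6.0.1 and the submitters' processing notes 2.1.1. The genome build is not given in the sources used here. Groups were taken from the labels. The 32285 genes gave 32245 symbols, those sharing a symbol being summed. Kept cells followed the study's filter, doublets were kept and no caller was run.

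The members, gene lists and rules for named genes were chosen with earlier results of these data known. UMIs were summed per class and library and tested with edgeR 4.0.16 in R 4.3.3 (filterByExpr, TMM, library block, adjusted p under 0.05), leaving out the 16 rule genes. DESeq2 1.42.0 was an alternative. Named were the 10 highest and 10 lowest log2 fold changes among genes called with 1 sign in all 3 libraries and at least 50 CPM in the higher class. For libraries, the 10 highest and 10 lowest ratios were named, without sex-linked, mitochondrial, ribosomal protein and unnamed genes. Of each list, the most counted gene and those called or past 2-fold were named, most lists in full. Some genes called against Pi16 cells and list genes that were not called are named beyond that rule. Intervals and figures used scipy 1.17.1, matplotlib 3.10.9, pandas 2.3.3 and numpy 2.4.6 in Python 3.11.15.

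On simulated counts of 5695 genes, edgeR recovered 100% of 4-fold and 52% of 2-fold rises, and 88% and 36% of such falls, for members against Pi16 cells. Against Krtdap Ccn3 cells it recovered 100% and 88% of rises and 100% and 60% of falls. The changed genes, 50 at each fold, were drawn from the more abundant genes, and all genes had the same simulated spread. Recovery of sparse genes or of genes carried by few cells was thus not measured. Ratios were simulated with 200 genes changed by a known fold per comparison. Of the intervals of those changed genes that were ranked, 94.1% held the true fold for 6 M DTR and 95.3% for 21 M B6. The simulated counts held counting error only, for which the interval is made. This coverage therefore does not extend to genes whose UMIs lie in few cells. Alternatives changed the tool, filters, block, gate, thinning, sex and scaling. The authors' proteomics and histology were not used here. A few genes that the rules would name are not reported here.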

Additional observations from a re-analysis of the deposited data

Results flagged for a closer look

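Outside the filter of 1000 to 5000 genes and 10% mitochondrial UMIs, 16 barcodes of 21 M B6 met the gate and the rule, all of them over the mitochondrial limit. Barcodes outside the filter that met the gate and the rule numbered 0 in 6 M WT and 1 in 6 M DTR. The latter had over 5000 genes and was within the mitochondrial limit. In all, 7475, 7179 and 9545 barcodes lay outside the filter in 21 M B6, 6 M WT and 6 M DTR.

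For 3 genes, the ratio between libraries in members and in Krtdap Ccn3 cells pointed in opposite directions, each with an interval that left out 1, and the difference between the classes was not tested. Against the limit of 3 counts, *Cxcl5* had a log2 ratio of 5.73 in members of 6 M DTR over 6 M WT. Its UMIs there came from 1 cell, and its ratio in Krtdap Ccn3 cells was 0.498. Against the same limit, *Ereg* had a log2 ratio of 4.39 in members of 21 M B6, from 7 cells. Its ratio in Krtdap Ccn3 cells was 0.351. *Gdnf* had a log2 ratio of −2.92 in members of 21 M B6, from 16 UMIs in 5 cells of 6 M WT, and a ratio of 1.63 in Krtdap Ccn3 cells.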

How the results depend on the processing

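The share of members among kept cells moved to 0.0598%, 0.0915% and 0.771% in the 3 libraries (in the order used above) when no UMI of *Pi16*, *Krtdap* or *Ccn3* was allowed, and among gated fibroblasts to 0.632%, 0.712% and 1.76%. With at least 5 *Gdf10* and *Inmt* UMIs, the shares of 21 M B6 were 1.67% of kept and 3.81% of gated cells. Cells called male gave 0.452% of kept cells in 6 M WT and 3.68% in 21 M B6 (7.63% of gated), cells called female 1.52% and 3.43% of kept and gated cells in 21 M B6. Gating on cells thinned to 5000 UMIs gave 5.92% of gated cells in 6 M WT and 9.18% in 21 M B6, and a mitochondrial limit of 5% gave 3.64% in 21 M B6. In each of these settings, the share was highest in 21 M B6.

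Against Pi16 cells, calls above and below moved from 8 and 13 to 68 and 46 with DESeq2 and 157 and 93 with edgeR on 19818 genes with no low-count filter, 66 and 45 with DESeq2 on the 5680 genes of edgeR, 0 and 5 with no library block, 65 and 82 after thinning, 22 and 29 with a mitochondrial limit of 5%, and 433 and 318 with all Pi16 cells. Without the deepest 5% of cells, 13 were above. Leaving out 1 library gave 1 to 14 above and 3 to 12 below, with 1 above without 6 M WT and 3 below without 21 M B6. Against Krtdap Ccn3 cells, calls above and below moved from 539 and 319 to 244 and 206 with no library block and to 346 and 201 with a stricter exclusion of other cell types. Calls below were 548 with no low-count filter and 638 with all *Krtdap* or *Ccn3* cells. Leaving out 1 library gave 213 to 398 above and 123 to 223 below, the lowest without 21 M B6, and 248 and 142 without 6 M WT. For *Inmt* against *Gdf10* alone, DESeq2 gave 6 and 5 and edgeR 34 and 22 on 12584 genes with no low-count filter, and DESeq2 gave 3 and 3 on the 1067 genes of edgeR. Leaving out 1 library gave 0 to 9 and 0 to 4, the highest without 6 M DTR, and a mitochondrial limit of 5% gave 1 below. The thinned comparison could not be fitted.

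Genes over 2-fold in 6 M DTR members moved from 219 and 341 to 601 and 1025 at 20 CPM, with 667 higher in female cells and 463 and 695 in male cells. In 21 M B6 they moved from 113 and 352 to 245 and 139 under TMM scaling, 272 and 1072 at 20 CPM and 182 and 654 in male cells, with 267 higher in female cells. Of 252 values of genes named against Pi16 cells under the alternatives, 201 kept direction and call, 50 lost the call and 1 reversed (*Cxcl2*, −1.07 after thinning). Against Krtdap Ccn3 cells 1407 of 1698 kept both and 291 lost the call. At least 5 alternatives ended the calls there of *Acta1*, *B2m*, *Ccl7*, *Ccn2*, *Col1a1*, *Cyp26b1*, *Dnajb4*, *Egr2*, *Fbln5*, *Heg1*, *Ier2*, *Igfbp7*, *Kitl*, *Klf4*, *Ltbp1*, *Lum*, *Ly6a*, *Podn*, *Prelp*, *Slc7a11*, *Smoc2* and *Thbs4*, besides those given above. Of 342 ratios between libraries, 287 stayed within their interval. DESeq2 on edgeR's genes and leaving out members with tendon cell UMIs were chosen after seeing the data. The causes were not tested. No paired analysis was possible because the labels give no replicate numbers and each group is 1 library, and the library is already the block of the class comparisons. The values of 6 M WT and 6 M DTR rest on 23 and 15 members, with 246361 and 170214 UMIs in all.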

Other observations

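*Sox9*, a transcription factor of cartilage and tendon attachment cells, stood at 40.6, 411 and 130 CPM in members of the libraries (same order), with 60%, 82.9% and 43.7% of its UMIs in 1 cell each, while the other 3 of 4 chondrocyte markers were at 0. Against all cells with at least 3 *Pi16* UMIs, *Sox9* rose by a log2 fold change of 1.70 (adjusted p = 0.00208 in edgeR). The 7 mural markers summed to 73.1, 52.9 and 43.6 CPM, led by *Cspg4*. The 4 perineurial markers summed to 77.1, 76.4 and 104 CPM, led by the glucose transporter gene *Slc2a1*. Mesothelial markers were at 0 in both 6 M libraries and at 4.68 CPM in 21 M B6, from 1 cell. Interferon response genes had a median log2 ratio of −0.69 in members of 21 M B6 over 6 M WT and 1.014 in Krtdap Ccn3 cells, over 8 and 5 genes ranked, and the difference was not tested.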
